A study of Mus musculus with 12 samples.

Results

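The spliceosome removes introns from pre-mRNA, and the genes of 41 of its proteins are described here across c-KIThi and c-KITlo LT-HSCs from normal mice and mice with CML. The members were chosen by protein family and matched by symbol to the Ensembl identifiers of the deposited table. All 41 were found among its 48795 genes, and all 41 were among the 14676 genes with enough counts to be tested. They comprise 14 small proteins with an Sm fold (7 Sm and 7 LSm proteins), 9 large factors (*Sf3a1*, *Sf3a3*, *Sf3b1*, *Sf3b2*, *Sf3b3*, *Prpf8*, *Snrnp200*, *Prpf6* and *Prpf19*) and 18 others.

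RNA-Seq was performed on 12 libraries, 3 from each of 4 groups: normal c-KIThi, normal c-KITlo, CML c-KIThi and CML c-KITlo LT-HSCs from BM. LT-HSCs are the most primitive blood-forming cells and were sorted as cells without lineage markers, Flt3 and CD48 and with Sca-1, CD150 and c-KIT, at the highest or the lowest surface c-KIT, using gates set on normal cells. CML came from Scl-tTA-BCR-ABL mice, in which a transactivator driven by Scl (Tal1) regulatory sequence switches on the BCR-ABL oncogene when doxycycline is withdrawn. In the study's methods, BM of these mice (CD45.2) was transplanted into irradiated CD45.1 recipients, and normal controls were kept on doxycycline, whereas the labels call the normal animals B6, so it cannot be told whether the normal libraries carried the transgenes. The labels give neither the age of the animals nor which animals went into which library. The study's methods state that young adult mice of both sexes were used in its experiments, without detail by library. In bulk RNA fewer cells of a type and less RNA per cell cannot be told apart.

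Splicing is carried out by small nuclear RNAs held in protein particles (snRNPs). A ring of 7 Sm proteins assembles on the U1, U2, U4 and U5 RNAs, and a ring of LSm proteins binds the end of U6. U1 recognizes the 5′ splice site, U2AF the 3′ splice site, and the U2 snRNP with its SF3a and SF3b complexes the branch point. PRPF8, the SNRNP200 helicase and PRPF6 belong to the U5 snRNP and the tri-snRNP, PRPF19 leads a complex needed for activation, and SR proteins bind exonic enhancers. SF3B1, SRSF2, U2AF1 and ZRSR2 are known in hematology because their genes are recurrently mutated in human myeloid neoplasms.

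The promoters of 4 small ring genes that fell in both comparisons (*Snrpe*, *Snrpg*, *Lsm5* and *Lsm7*) are shown beside those of 4 large factors that were not lower (*Sf3b3*, *Snrnp200*, *Prpf6* and *Sf3a1*). Each line gives the 100 bases before the RefSeq start, 5′ to 3′ on the strand of the gene (GRCm38.p6), with matches to any of the motifs searched in capitals.
Snrpe: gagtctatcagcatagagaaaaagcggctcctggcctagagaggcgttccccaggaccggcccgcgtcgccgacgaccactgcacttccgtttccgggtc
Snrpg: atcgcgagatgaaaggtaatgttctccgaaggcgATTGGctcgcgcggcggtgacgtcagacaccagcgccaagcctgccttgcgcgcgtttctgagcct
Lsm5: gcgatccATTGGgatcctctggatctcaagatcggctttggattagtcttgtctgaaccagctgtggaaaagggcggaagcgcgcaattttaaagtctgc
Lsm7: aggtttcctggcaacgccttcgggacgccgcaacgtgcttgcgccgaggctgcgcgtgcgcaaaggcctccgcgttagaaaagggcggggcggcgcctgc
Sf3b3: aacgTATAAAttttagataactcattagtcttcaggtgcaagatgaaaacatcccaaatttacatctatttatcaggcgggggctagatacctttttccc
Snrnp200: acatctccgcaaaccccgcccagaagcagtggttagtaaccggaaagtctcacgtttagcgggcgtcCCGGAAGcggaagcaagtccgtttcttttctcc
Prpf6: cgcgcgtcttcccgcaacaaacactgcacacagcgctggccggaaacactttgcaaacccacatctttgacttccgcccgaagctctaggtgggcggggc
Sf3a1: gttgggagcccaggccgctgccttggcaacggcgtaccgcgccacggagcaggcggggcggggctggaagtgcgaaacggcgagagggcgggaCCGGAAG
In this order they lie at chr1:133610281-133610380 (minus), chr6:86371440-86371539 (plus), chr6:56704700-56704799 (minus), chr10:80855210-80855309 (minus), chr8:110846804-110846903 (minus), chr2:127208286-127208385 (plus), chr2:181601219-181601318 (plus) and chr11:4160254-4160353 (plus). No motif searched had a match in the bases shown for *Snrpe*, *Lsm7* and *Prpf6*. ATTGG is the reverse complement of CCAAT, the motif bound by NF-Y. CCGGAAG is a core motif of ETS-family factors, and TATAAA is the TATA box.

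Promoters of 300 bases (250 before to 50 after the start) were matched for 35 of the 41 members, and each motif was searched on both strands. CCGGAAG (or CTTCCGG, which can overlap it) was present in 17 of 35 members (48.6%) and in 8.86% of all 32851 promoters of that length. It was found in 7 of 9 large factors (77.8%), in 3 of 11 Sm and LSm genes (27.3%) and in 7 of 15 others (46.7%). The matches of *Snrpe*, *Snrpg*, *Lsm5*, *Sf3b3* and *Prpf6* lie outside the bases printed above. CCAAT (or ATTGG) was present in 40.0% of members and 37.4% of all promoters, in 6 of 11 Sm and LSm genes (54.5%), 4 of 9 large factors (44.4%) and 4 of 15 others (26.7%). Of members and all promoters, TATAAA (or TTTATA) was present in 11.4% and 13.6%, CACGTG, which reads the same on both strands, in 2.86% and 7.15%, and GCATGCGC (or GCGCATGC) in 11.4% and 2.71%. A match describes the letters of the window and not a binding site.

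Libraries held 7753878 to 31020852 counts on genes. The percentage of HTSeq entries on genes was 24.4 to 37.1 in c-KIThi and 43.9 to 60.6 in c-KITlo libraries, and genes with under 1000 exonic bases took 7.03% to 13.8% and 1.40% to 5.45% of gene counts, without overlap in either measure. All 10 LT-HSC markers were detected in every group, with sums of 790 to 1020 CPM (counts relative to TMM-scaled library sizes) in c-KIThi and 1980 to 3750 CPM in c-KITlo libraries. *Kit* mRNA ran from 57.6 to 218 CPM in c-KIThi libraries and was 380, 675 and 33.6 CPM in normal c-KITlo and 470 to 565 CPM in CML c-KITlo libraries, whereas the gate was on surface protein. The summed level of 6 T and NK cell genes was 148 to 206 CPM in normal c-KIThi, 45.1 to 401 CPM in normal c-KITlo, 322 to 1090 CPM in CML c-KIThi and 182 to 229 CPM in CML c-KITlo libraries, most of it from *Nkg7* (308 to 1080 CPM in CML c-KIThi libraries). Of its T cell genes, *Cd3g* was at 0 in all 12 libraries, *Cd3e* and *Cd3d* were at most 0.382 and 4.05 CPM, and *Trac* was at most 12.6 CPM, highest in CML c-KIThi libraries. The summed level of 7 neutrophil genes was 9.38 to 5280 CPM in normal c-KITlo libraries, highest in library 3, against 42.3 to 710 CPM in normal c-KIThi, 329 to 2140 CPM in CML c-KIThi and 35.6 to 1590 CPM in CML c-KITlo libraries. The summed level of 6 megakaryocyte genes was 3000 to 11800 CPM in normal c-KIThi and 880 to 4480 CPM in normal c-KITlo libraries. In CML it was 1230 to 2390 CPM in c-KIThi and 2310 to 2970 CPM in c-KITlo libraries. In CML *Itga2b* had 227 to 319 CPM in c-KIThi and 1800 to 2080 CPM in c-KITlo libraries. *Pf4* went the other way (584 to 1640 and 215 to 509 CPM), as did *Gp9* (84.2 to 321 and 67.6 to 74.6 CPM). *Ppbp*, *Gp1bb* and *Gp5* overlapped between the CML groups. The highest megakaryocyte sum was in normal c-KIThi library 1, where *Pf4* had 10800 CPM. For 3 progenitor genes the sums were 81.0 to 110, 62.0 to 214, 176 to 271 and 308 to 423 CPM in the same order. The part of these differences in the results below was not tested.

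Per length, the most abundant members in c-KIThi LT-HSCs were genes of the small ring proteins. In normal c-KIThi LT-HSCs mean levels of the 14 Sm and LSm genes ran from 49.9 CPM per kb of exon (*Lsm8*) to 641 CPM per kb (*Snrpd2*), and those of the 9 large factors from 7.83 CPM per kb (*Snrnp200*) to 67.6 CPM per kb (*Sf3a3*). In CML c-KIThi LT-HSCs the ranges were 46.3 (*Lsm7*) to 718 CPM per kb (*Snrpb*) and 8.49 (*Snrnp200*) to 110 CPM per kb (*Sf3a3*). In c-KITlo LT-HSCs the ranges of the classes overlapped more widely, with 2.42 (*Lsm7*) to 384 CPM per kb (*Snrpb*) for Sm and LSm genes and 10.5 (*Prpf8*) to 77.0 CPM per kb (*Sf3a3*) for large factors in CML, and 5.58 (*Lsm5*) to 675 CPM per kb (*Snrpb*) and 10.7 (*Prpf8*) to 97.6 CPM per kb (*Sf3a3*) in normal cells.

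**Figure D1:**
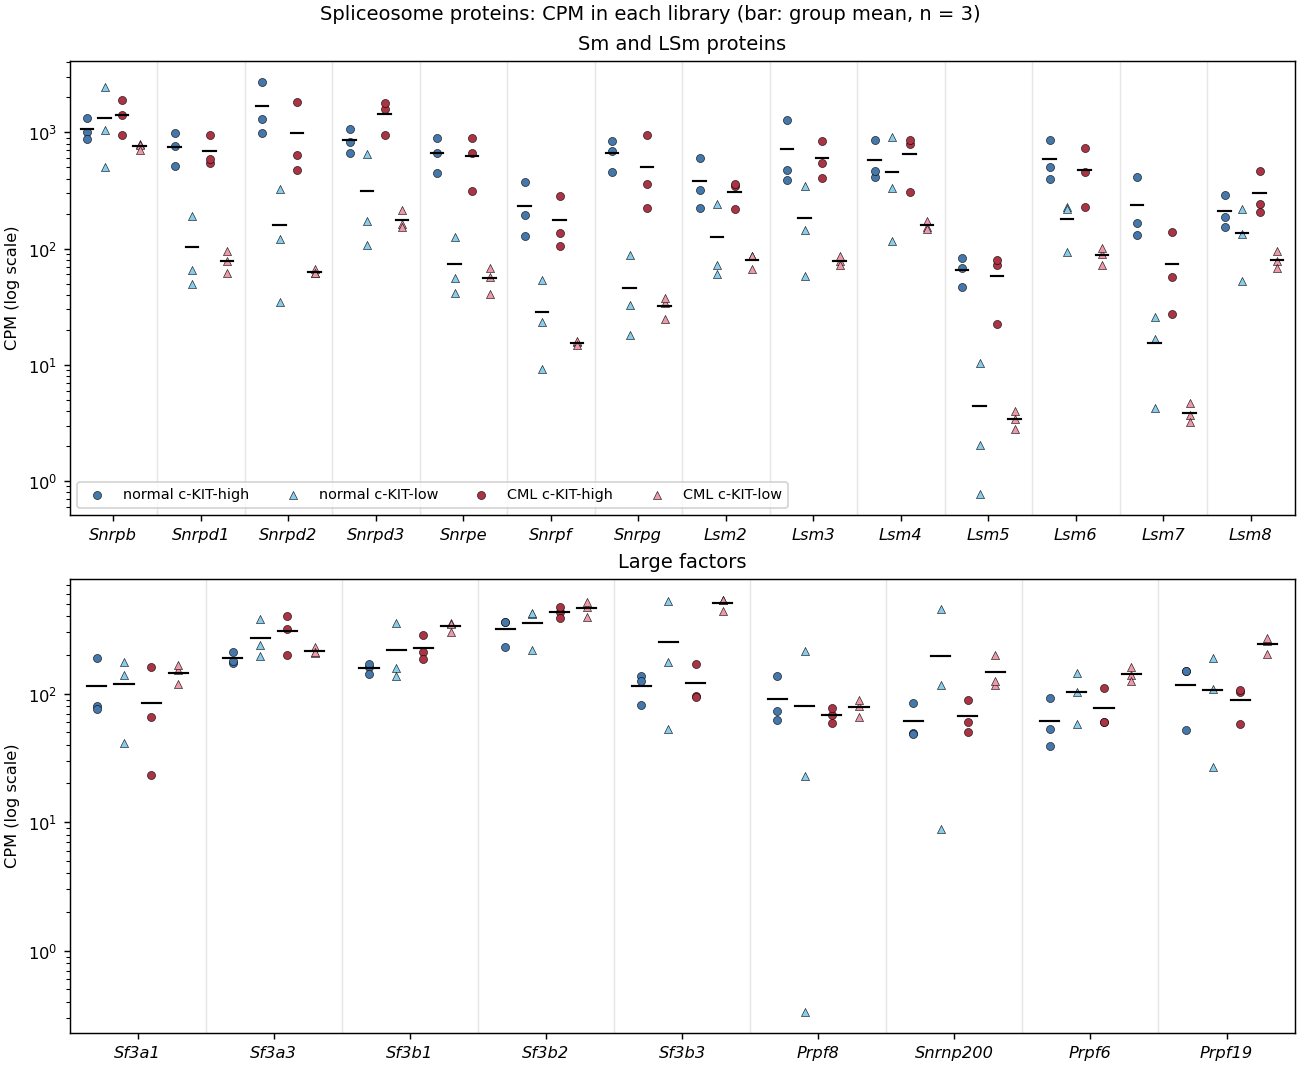
CPM on TMM-scaled library sizes (log axis) of 14 Sm and LSm genes (top) and 9 large factors (bottom) in each of 12 libraries, with a bar at each group mean (n = 3). In CML all 14 Sm and LSm genes had lower values in every c-KITlo library (triangles) than in every c-KIThi library (circles), while Prpf8 and Snrnp200 spread most widely in normal c-KITlo libraries.

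Many transcripts of the Sm and LSm rings fell in c-KITlo compared with c-KIThi LT-HSCs, in both normal and CML mice. No member was called higher in the main edgeR fit, though a few were in some alternatives. In normal LT-HSCs 8 of 41 members fell (*Snrpd1*, *Snrpd2*, *Snrpe*, *Snrpf*, *Snrpg*, *Lsm5*, *Lsm7* and *Snrpb2*) at an edgeR adjusted p under 0.05, where 6.5% of all tested genes were called, 3.4% lower and 3.1% higher (455 higher and 499 lower, or 322 and 547 with medians of ratios in place of TMM). In CML LT-HSCs 15 of 41 fell, where 8.44% of all tested genes were called, 5.53% lower and 2.91% higher. These were the same 8 with *Snrpd3*, *Lsm2*, *Lsm3*, *Lsm6*, *Lsm8*, *Sf3b6* and *U2af1*. At an unadjusted p under 0.05 in edgeR were 19 members in normal and 23 in CML LT-HSCs, beside 3904 and 3947 of all 14676 genes. The median log2 fold change of the members was -0.88 in normal and -0.95 in CML LT-HSCs, and that of all tested genes was 0.16 and 0.05. The 3 libraries of each group did not overlap for 17 members lower and 0 higher in normal LT-HSCs (12.6% and 11% of all genes), and for 22 lower and 7 higher in CML (23.6% and 27.6%).

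Each member called kept its direction in each alternative and with each library left out, but the number called depended on the setting. That of the whole table did too, and these numbers did not always move together. With offsets on exonic length 11 members and 5.53% of all genes were called in normal LT-HSCs, against 8 and 6.5% in the main fit. In normal LT-HSCs the number of members called was 0 with limma-voom, which called 0.0136% of all genes. At an unadjusted p under 0.05 limma-voom had 17 members, beside 1967 of 14676 genes. The number called was 14 with DESeq2, which called 17.9% of all genes. In edgeR it was 0 without normal c-KIThi library 1 or 2, where 0 genes of the whole table were called. At an unadjusted p under 0.05 were 13 and 18 members there, beside 3919 of 16121 and 3329 of 15720 genes. Without normal c-KITlo library 1 it was 0 as well, where 0.143% of all genes were called. There 14 members and 3646 of 16057 genes had an unadjusted p under 0.05. The number of members called was 5 without normal c-KIThi library 3 (1.33% of all genes). It was 19 without normal c-KITlo library 3 (11.6%), of which 17 were lower and *Sf3b3* and *Snrnp200* higher. Without CML c-KITlo library 1, 2 or 3 it was 4, 4 and 5 (1.32%, 1.29% and 1.98%). These libraries are in neither group compared and enter through the shared filter, scaling and estimate of the spread.

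In CML LT-HSCs no member was called in edgeR without CML c-KIThi library 2 or any one of the 3 CML c-KITlo libraries, and 0, 0, 0 and 2 genes of the whole table were. At an unadjusted p under 0.05 were 22, 21, 21 and 22 members, beside 2996 of 16028, 2848 of 15938, 2912 of 15973 and 2804 of 15937 genes. limma-voom called 29 members (6 of them higher) and 42.8% of all genes, and DESeq2 21 members (1 higher) and 19.1%. The median of the 14 Sm and LSm genes ran from -2.83 to -3.24 in edgeR without those 4 libraries.

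**Figure D2:**
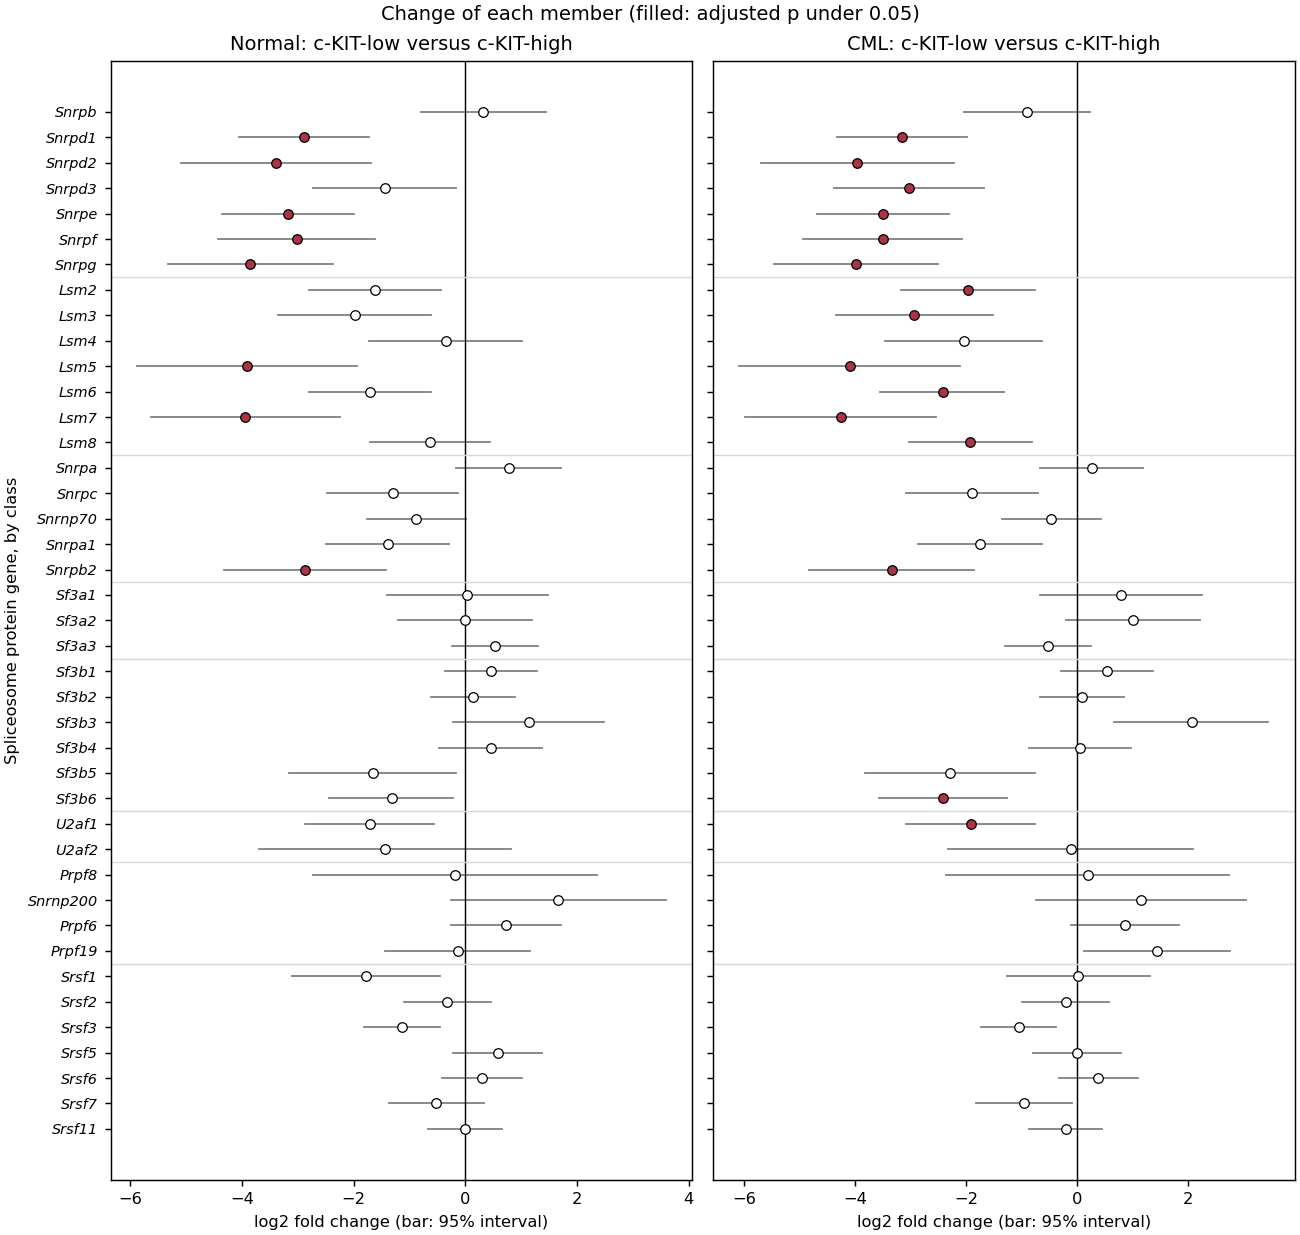
Log2 fold change of each of the 41 members, c-KITlo versus c-KIThi, in normal (left) and CML LT-HSCs (right), with 95% intervals from edgeR, where filled points have an adjusted p under 0.05. The 8 and 15 filled points all lie below 0, and Snrpb stands to the right of the other Sm genes in both panels.

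Of the 7 Sm proteins, which form the ring on U1, U2, U4 and U5 RNA, 5 fell in normal and 6 in CML c-KITlo LT-HSCs, and the median change was -3.02 and -3.49 on the log2 scale. *Snrpe* (SmE, on chromosome 1) had 898, 665 and 449 CPM in normal c-KIThi and 56.1, 41.6 and 125 CPM in normal c-KITlo libraries, and 312, 898 and 668 CPM in CML c-KIThi and 57.5, 68.2 and 40.9 CPM in CML c-KITlo libraries. Every c-KITlo library was below every c-KIThi library. Its log2 fold change was -3.18 ± 0.54 (SE, edgeR adjusted p = 0.0154) in normal and -3.49 ± 0.55 (adjusted p = 0.0151) in CML LT-HSCs, or 9.04-fold and 11.3-fold lower.

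*Snrpg*, the smallest Sm protein, had 837, 693 and 454 CPM in normal c-KIThi and 32.6, 18.0 and 87.5 CPM in normal c-KITlo libraries. In CML it had 223, 941 and 357 CPM in c-KIThi and 34.3, 37.2 and 24.7 CPM in c-KITlo libraries. Again the groups did not overlap, and the level was 14.4-fold (-3.85 ± 0.68, adjusted p = 0.0172) and 15.8-fold lower (-3.98 ± 0.68, adjusted p = 0.0151). *Snrpd2* (SmD2) had 2730, 1310 and 990 CPM in normal c-KIThi, 120, 34.9 and 327 CPM in normal c-KITlo, 479, 1830 and 644 CPM in CML c-KIThi and 61.3, 67.0 and 62.0 CPM in CML c-KITlo libraries. It was the most abundant Sm transcript in normal c-KIThi cells per length and fell in both (-3.39 and -3.96 on the log2 scale, adjusted p = 0.0304 and 0.0172).

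*Snrpd1* (SmD1) had 984, 769 and 515 CPM in normal c-KIThi and 65.6, 49.3 and 192 CPM in normal c-KITlo libraries, and 548, 957 and 585 CPM in CML c-KIThi and 77.5, 96.1 and 62.0 CPM in CML c-KITlo libraries. *Snrpf* (SmF) had 372, 195 and 129 CPM, then 23.2, 9.28 and 53.5 CPM, 135, 286 and 105 CPM, and 15.8, 15.9 and 14.8 CPM in the same order of groups. Both fell without overlap in either disease state, with log2 fold changes of -2.89 and -3.15 (*Snrpd1*) and -3.02 and -3.5 (*Snrpf*) and adjusted p between 0.0151 and 0.0252. Of the exonic bases of *Snrpf* 85.37% are shared with *Ccdc38*, and its reads cannot be assigned with certainty.

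*Snrpd3* (SmD3) passed the test in CML LT-HSCs. It had 1070, 824 and 662 CPM in normal c-KIThi and 108, 174 and 658 CPM in normal c-KITlo libraries, and c-KITlo library 3 lay just under the lowest c-KIThi library (log2 fold change -1.44 ± 0.59, adjusted p = 0.139). In CML it had 1580, 1790 and 959 CPM in c-KIThi and 164, 216 and 152 CPM in c-KITlo libraries, 8.14-fold lower (-3.02 ± 0.62, adjusted p = 0.0175). The difference between the disease states did not pass the test (-1.58, 95% interval -3.35 to 0.19, adjusted p = 0.493).

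*Snrpb*, which encodes SmB/B′ and has the longest coding sequence of the ring, had the smallest change of the ring in both disease states, and its difference from the other Sm genes was not tested. It had 1320, 1010 and 881 CPM in normal c-KIThi and 1050, 505 and 2450 CPM in normal c-KITlo libraries, which overlapped (log2 fold change 0.32, 95% interval -0.80 to 1.44, adjusted p = 0.757). In CML the 1900, 1410 and 950 CPM of c-KIThi lay above the 801, 772 and 702 CPM of c-KITlo libraries (-0.90, 95% interval -2.03 to 0.23, adjusted p = 0.289). Within a library, *Snrpb* per kb of exon over the median of the other 6 Sm genes was 1.25 to 1.65 in normal c-KIThi, 13.4 to 16.8 in normal c-KITlo, 1.28 to 4.68 in CML c-KIThi and 10.8 to 13.3 in CML c-KITlo libraries. The c-KITlo libraries all lay above the c-KIThi libraries in this ratio, which does not depend on library scaling and was described without a test.

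Of the 7 LSm proteins, 2 fell in normal and 6 in CML c-KITlo LT-HSCs, and the median change was -1.70 and -2.42 on the log2 scale. *Lsm7* had 417, 166 and 131 CPM in normal c-KIThi and 16.6, 4.25 and 25.8 CPM in normal c-KITlo libraries, and 27.1, 139 and 56.6 CPM in CML c-KIThi and 3.70, 3.25 and 4.69 CPM in CML c-KITlo libraries. It was the lowest of all 41 members in log2 fold change in both comparisons (-3.94 ± 0.78, adjusted p = 0.0215, and -4.25 ± 0.79, adjusted p = 0.0153). *Lsm5* had 83.4, 67.7 and 46.4 CPM in normal c-KIThi and 2.06, 0.769 and 10.4 CPM in normal c-KITlo libraries, and 22.5, 71.8 and 79.5 CPM in CML c-KIThi and 3.39, 4.03 and 2.79 CPM in CML c-KITlo libraries. The lowest of these values rested on 15 counts, and *Lsm5* fell in both (-3.90 and -4.09, adjusted p = 0.0312 and 0.0223).

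The other LSm genes changed less. *Lsm3* had 1290, 475 and 391 CPM in normal c-KIThi, 144, 57.6 and 346 CPM in normal c-KITlo, 540, 851 and 407 CPM in CML c-KIThi and 77.8, 86.7 and 72.0 CPM in CML c-KITlo libraries. *Lsm6* had 865, 501 and 394 CPM, 228, 93.3 and 221 CPM, 458, 733 and 228 CPM, and 90.5, 102 and 72.0 CPM in that order. Both lay lower without overlap in each comparison, but passed the test only in CML (7.60-fold, adjusted p = 0.0220, and 5.36-fold, adjusted p = 0.0194), with adjusted p = 0.0763 and 0.0616 in normal LT-HSCs.

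*Lsm2* had 607, 319 and 224 CPM in normal c-KIThi, 60.3, 71.7 and 244 CPM in normal c-KITlo, 346, 360 and 219 CPM in CML c-KIThi and 85.6, 85.8 and 66.1 CPM in CML c-KITlo libraries. *Lsm8*, which distinguishes the nuclear ring from the cytoplasmic LSm ring that acts in mRNA decay, had 289, 186 and 154 CPM, 134, 52.4 and 219 CPM, 464, 240 and 206 CPM, and 77.8, 95.5 and 67.6 CPM. In normal LT-HSCs both overlapped between the groups through c-KITlo library 3 (adjusted p = 0.0899 and 0.471), and in CML both fell, 3.90-fold (adjusted p = 0.0475) and 3.78-fold (adjusted p = 0.0407). *Lsm4* had 864, 413 and 462 CPM in normal c-KIThi, 331, 117 and 914 CPM in normal c-KITlo, 788, 855 and 305 CPM in CML c-KIThi and 154, 174 and 147 CPM in CML c-KITlo libraries. It passed the test in neither comparison (-0.35, adjusted p = 0.780, and -2.03, adjusted p = 0.0700).

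Among the proteins specific to U1 and U2, 1 of 5 fell in each comparison. *Snrpb2*, which binds U2 RNA, had 510, 702 and 440 CPM in normal c-KIThi, 105, 20.6 and 101 CPM in normal c-KITlo, 98.1, 228 and 549 CPM in CML c-KIThi and 27.7, 27.1 and 31.9 CPM in CML c-KITlo libraries. It fell 7.30-fold (-2.87 ± 0.67, adjusted p = 0.0312) and 10.1-fold (-3.33 ± 0.68, adjusted p = 0.0175), without overlap. Its paralog *Snrpa*, a U1 protein, had 56.9, 61.7 and 66.2 CPM, 150, 56.1 and 111 CPM, 100, 47.1 and 51.7 CPM, and 85.6, 67.3 and 86.5 CPM in the same order. The groups overlapped for *Snrpa* (0.78, 95% interval -0.16 to 1.71, and 0.27, 95% interval -0.66 to 1.2), and the ratio of *Snrpb2* to *Snrpa* CPM within a library was 6.65 to 11.4 in normal c-KIThi, 0.367 to 0.914 in normal c-KITlo, 0.980 to 10.6 in CML c-KIThi and 0.324 to 0.402 in CML c-KITlo libraries.

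*Snrpa1*, the partner of *Snrpb2* on U2, had 701, 333 and 315 CPM in normal c-KIThi, 136, 69.3 and 309 CPM in normal c-KITlo, 295, 382 and 239 CPM in CML c-KIThi and 95.5, 95 and 83.9 CPM in CML c-KITlo libraries. *Snrpc*, a U1 protein with a zinc finger, had 105, 82.5 and 70.6 CPM, 26.9, 11.1 and 67.0 CPM, 101, 121 and 88.3 CPM, and 28.7, 28.4 and 26.7 CPM. Both lay lower without overlap in each comparison but did not pass the test, with adjusted p = 0.0555 and 0.0524 in CML LT-HSCs. *Snrnp70*, the largest U1 protein, overlapped between the groups in both disease states (-0.88 and -0.46).

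In the SF3 complexes, which hold the branch point, only *Sf3b6* was called in the main edgeR fit. The difference between small and large subunits was not tested. Within SF3b, *Sf3b6* (p14, which contacts the branch point adenosine) had 838, 562 and 456 CPM in normal c-KIThi, 269, 74.6 and 398 CPM in normal c-KITlo, 594, 780 and 475 CPM in CML c-KIThi and 107, 136 and 104 CPM in CML c-KITlo libraries. It fell 5.34-fold in CML (-2.42 ± 0.53, adjusted p = 0.0211) and did not pass the test in normal LT-HSCs (-1.32 ± 0.51, adjusted p = 0.126), without overlap in either. *Sf3b5*, another small subunit, had 1300, 453 and 390 CPM in normal c-KIThi and 147, 58.9 and 471 CPM in normal c-KITlo libraries. In CML it had 656, 766 and 310 CPM in c-KIThi and 117, 115 and 124 CPM in c-KITlo libraries. Its edgeR adjusted p was 0.148 in normal and 0.0634 in CML LT-HSCs. A further small SF3b subunit, *Phf5a*, was placed in another list and is not in the subunit ratio below. It was not called in normal (-0.25, edgeR adjusted p = 0.845) or CML LT-HSCs (-1.59, adjusted p = 0.125).

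*Sf3b3* had 82.2, 137 and 125 CPM in normal c-KIThi, 175, 530 and 52.9 CPM in normal c-KITlo, 96.3, 169 and 94.8 CPM in CML c-KIThi and 533, 537 and 439 CPM in CML c-KITlo libraries. It had the highest log2 fold change of the members in CML (2.07, 95% interval 0.68 to 3.45), with no overlap. Its adjusted p of 0.0627 did not pass in edgeR, while DESeq2 called it higher. *Sf3b1*, which clamps the branch point, had 210, 187 and 288 CPM in CML c-KIThi and 356, 345 and 299 CPM in CML c-KITlo libraries (0.55, 95% interval -0.29 to 1.38). *Sf3b2* and *Sf3b4* overlapped between the groups in both disease states, with log2 fold changes of 0.06 to 0.46. The summed CPM of *Sf3b5* and *Sf3b6* over that of *Sf3b1*, *Sf3b2* and *Sf3b3* was 1.51 to 3.54 in normal c-KIThi and 0.555, 0.102 and 2.13 in normal c-KITlo libraries, which overlap, and 1.02 to 1.86 in CML c-KIThi and 0.164 to 0.197 in CML c-KITlo libraries, which do not.

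None of the 3 SF3a subunits passed the edgeR test, and none had an unadjusted p under 0.05 in either comparison. *Sf3a1* had 80.4, 190 and 76.4 CPM in normal c-KIThi, 140, 175 and 41.3 CPM in normal c-KITlo, 66.4, 23.1 and 162 CPM in CML c-KIThi and 152, 118 and 166 CPM in CML c-KITlo libraries. *Sf3a2* was higher in every CML c-KITlo library (99.5, 68.3 and 86.9 CPM) than in every CML c-KIThi library (33.7, 36.4 and 56.3 CPM), with an adjusted p of 0.267. *Sf3a3* overlapped in both (174, 211 and 179 CPM against 238, 197 and 380 CPM in normal, and 401, 319 and 201 CPM against 229, 206 and 209 CPM in CML LT-HSCs). Of the exonic bases of *Sf3a2* 16.14% are shared with *Plekhj1*.

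*U2af1*, which reads the AG of the 3′ splice site, had 112, 161 and 136 CPM in normal c-KIThi, 30.5, 16.4 and 78.0 CPM in normal c-KITlo, 78.0, 63.9 and 135 CPM in CML c-KIThi and 25.7, 22.2 and 25.7 CPM in CML c-KITlo libraries. It fell 3.76-fold in CML (-1.91 ± 0.54, adjusted p = 0.0471) and lay lower without overlap in normal LT-HSCs (-1.71 ± 0.53, adjusted p = 0.0718). Its partner *U2af2*, which binds the polypyrimidine tract, had 8.38, 44.9 and 30 CPM, 0.498, 24.9 and 5.24 CPM, 18.2, 25.7 and 30 CPM, and 19.6, 24.3 and 24.5 CPM. The groups overlapped for *U2af2*, and its fold changes were poorly determined (95% intervals -3.70 to 0.82 and -2.32 to 2.10).

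The U5, tri-snRNP and PRPF19 factors were not lower as a class, and none of the 4 passed the edgeR test in either comparison, with 0 and 1 of them at an unadjusted p under 0.05. *Snrnp200*, the helicase that unwinds U4 from U6, had 49.4, 85.3 and 48.9 CPM in normal c-KIThi, 116, 459 and 8.89 CPM in normal c-KITlo, 59.9, 50 and 89.4 CPM in CML c-KIThi and 117, 126 and 200 CPM in CML c-KITlo libraries. It had the highest log2 fold change of the members in normal LT-HSCs (1.67, 95% interval -0.25 to 3.59), where library 3 went the other way. *Prpf8*, the scaffold of the active site, ranged over 0.332, 216 and 23.0 CPM in normal c-KITlo libraries, where the lowest value was 10 counts, against 62.0 to 137 CPM in normal c-KIThi, 59.6 to 76.8 CPM in CML c-KIThi and 65.5 to 88.7 CPM in CML c-KITlo libraries. Its intervals of -2.73 to 2.36 and -2.35 to 2.74 allow a large change in either direction.

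*Prpf19* had 52.2, 151 and 150 CPM in normal c-KIThi, 26.7, 188 and 108 CPM in normal c-KITlo, 103, 58.4 and 107 CPM in CML c-KIThi and 255, 269 and 204 CPM in CML c-KITlo libraries. *Prpf6*, which bridges U5 and U4/U6, had 52.8, 93.2 and 38.9 CPM, 103, 145 and 58.5 CPM, 60.6, 60.5 and 111 CPM, and 139, 125 and 162 CPM. In CML both were higher in every c-KITlo library (1.44, adjusted p = 0.148, and 0.87, adjusted p = 0.236).

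None of the 7 SR proteins passed the edgeR test, and 2 had an unadjusted p under 0.05 in each comparison. Of all 14676 genes 3904 and 3947 had such a p. *Srsf3*, the smallest of them, had 393, 402 and 369 CPM in normal c-KIThi, 210, 130 and 188 CPM in normal c-KITlo, 319, 293 and 455 CPM in CML c-KIThi and 173, 184 and 158 CPM in CML c-KITlo libraries. It lay lower without overlap in both (-1.14 ± 0.32, adjusted p = 0.0504, and -1.05 ± 0.31, adjusted p = 0.0565), just outside the threshold. *Srsf1* had 227, 348 and 189 CPM, 84.5, 103 and 35.1 CPM, 49.8, 59.1 and 251 CPM, and 134, 140 and 94.7 CPM, lower without overlap in normal (-1.78, adjusted p = 0.0940) and overlapping in CML LT-HSCs (0.03).

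*Srsf7* was the most abundant SR transcript in each group, with 749, 675 and 712 CPM in CML c-KIThi and 340, 407 and 357 CPM in CML c-KITlo libraries (-0.95, adjusted p = 0.145). *Srsf2*, *Srsf5*, *Srsf6* and *Srsf11* had log2 fold changes of -0.32 to 0.58 in the c-KIT comparisons. Of the exonic bases of *Srsf2* 25.29% are shared with *Mettl23*. Summed SR levels were 1880 to 2670 CPM in normal c-KIThi, 1130 to 2050 CPM in normal c-KITlo, 1860 to 2330 CPM in CML c-KIThi and 1480 to 1620 CPM in CML c-KITlo libraries.

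Set side by side, the 14 Sm and LSm genes had a median log2 fold change of -2.43 in normal and -3.09 in CML c-KITlo versus c-KIThi LT-HSCs, and the 9 large factors of 0.46 and 0.79. The medians thus differed by -2.89 and -3.88 on the log2 scale, and by -2.05 to -4.48 over the alternatives and the libraries left out in turn. Of Sm and LSm genes 7 and 12 of 14 fell in the main edgeR fit. Of the large factors 0 of 9 were called there, with 0 and 2 at an unadjusted p under 0.05. DESeq2 called none of them in normal and *Sf3b3* in CML LT-HSCs. In CML all 14 Sm and LSm genes were lower in every c-KITlo library and 5 of 9 large factors were higher in every one, against 23.6% and 27.6% of all genes.

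The ratio of summed Sm and LSm CPM to summed large-factor CPM needs no scaling between libraries. It was 11.7, 4.94 and 5.53 in normal c-KIThi and 1.73, 0.458 and 5.71 in normal c-KITlo libraries, and 5.26, 8.06 and 3.80 in CML c-KIThi and 0.736, 0.829 and 0.653 in CML c-KITlo libraries. The CML groups did not overlap, whereas normal c-KITlo library 3 lay among the c-KIThi libraries. This library had the highest neutrophil marker sum. Of the c-KITlo libraries it also had the lowest percentage of entries on genes (43.9). Its shares of short-gene counts (5.45%) and of entries with several matches (52.3%) were the highest of them. The part of these measures in its ratio was not tested. Summed large-factor levels were 1060 to 1540 CPM in normal c-KIThi, 1030 to 2690 CPM in normal c-KITlo, 1410 to 1520 CPM in CML c-KIThi and 2200 to 2320 CPM in CML c-KITlo libraries, and summed Sm and LSm levels were 5880 to 12600, 1230 to 5870, 5770 to 11400 and 1490 to 1820 CPM.

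**Figure D3:**
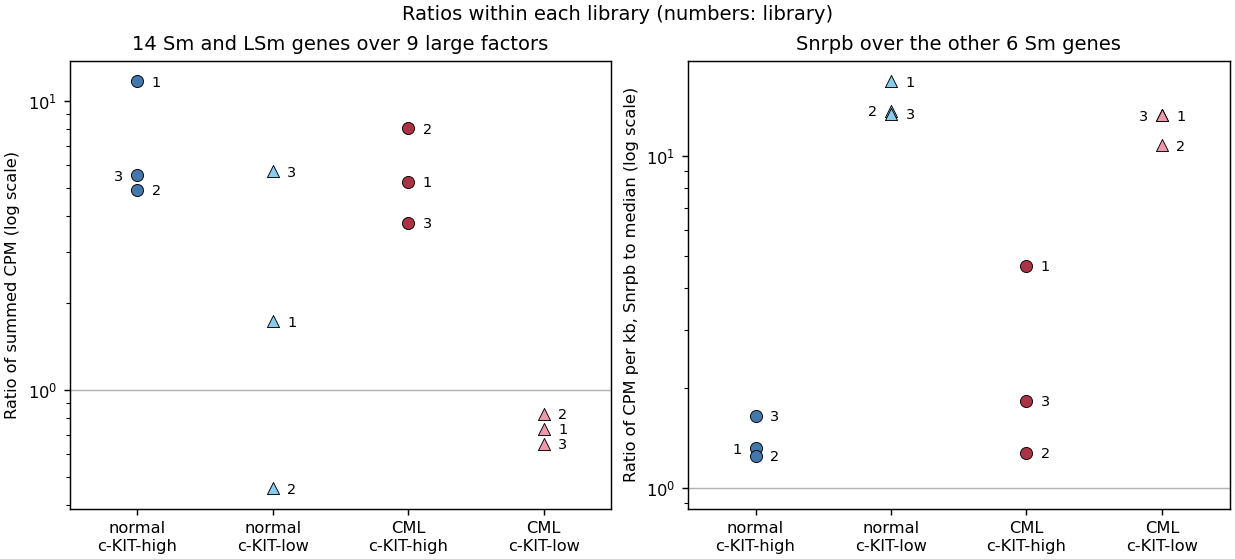
Left, summed CPM of 14 Sm and LSm genes over that of 9 large factors in each library. Right, Snrpb CPM per kb over the median of the other 6 Sm genes (both on log axes, numbers give the library). Normal c-KITlo library 3 lies at 5.71 among the c-KIThi libraries on the left, but at 13.4 with the other c-KITlo libraries on the right.

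The change of a member was related to its length. Across the 41 members the Spearman correlation of log2 fold change with the longest coding length was 0.79 in normal and 0.90 in CML LT-HSCs, and with exonic length 0.52 and 0.66, as a description across genes of the same libraries. Across the 12464 tested genes with a coding length the correlation with that length was 0.06 and 0.44. Median coding length was 307 bases for Sm and LSm genes (228 to 693) and 2823 bases for large factors (1503 to 7005). Among all 902 tested genes with 450 or fewer coding bases, the class of 13 of the 14 Sm and LSm genes, the median log2 fold change was -1.12 in normal and -2.19 in CML LT-HSCs, and 18.0% and 39.5% fell.

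Offsets were fitted on exonic length to remove, in each library, its trend with a gene's deviation from its mean over libraries. They gave 11 members called in normal and 14 in CML LT-HSCs, and a difference between the class medians of -2.84 and -2.70. Exonic length ran from 792 to 4199 bases in Sm and LSm genes and from 2785 to 11370 bases in large factors. No offset was fitted on coding length, so a relation to coding length can remain in these values. Of the 14 Sm and LSm genes 8 have pseudogene copies that match a transcript at 95% identity or more over at least 100 bases, and none of the 9 large factors has. Reads of such genes can match several places. The 8 are *Snrpd1*, *Snrpd2*, *Snrpe*, *Snrpf*, *Snrpg*, *Lsm5*, *Lsm6* and *Lsm7*, and include all 7 Sm and LSm genes called in normal LT-HSCs. Of those without such copies, *Snrpd3*, *Lsm2*, *Lsm3* and *Lsm8* were called in CML only, and *Snrpb* and *Lsm4* in neither comparison. Of the 18 other members 7 have such copies. Among these *U2af1* was called in CML only, and *Snrpa*, *Snrpc*, *Sf3b4*, *U2af2*, *Srsf3* and *Srsf5* in neither comparison. *Snrpb2*, called in both comparisons, and *Sf3b6*, called in CML, have no such copy. The entries of reads with several matches were 58.9% to 66.9% of all HTSeq entries in c-KIThi and 34.3% to 52.3% in c-KITlo libraries. The part of these measures in the difference was not tested.

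**Figure D4:**
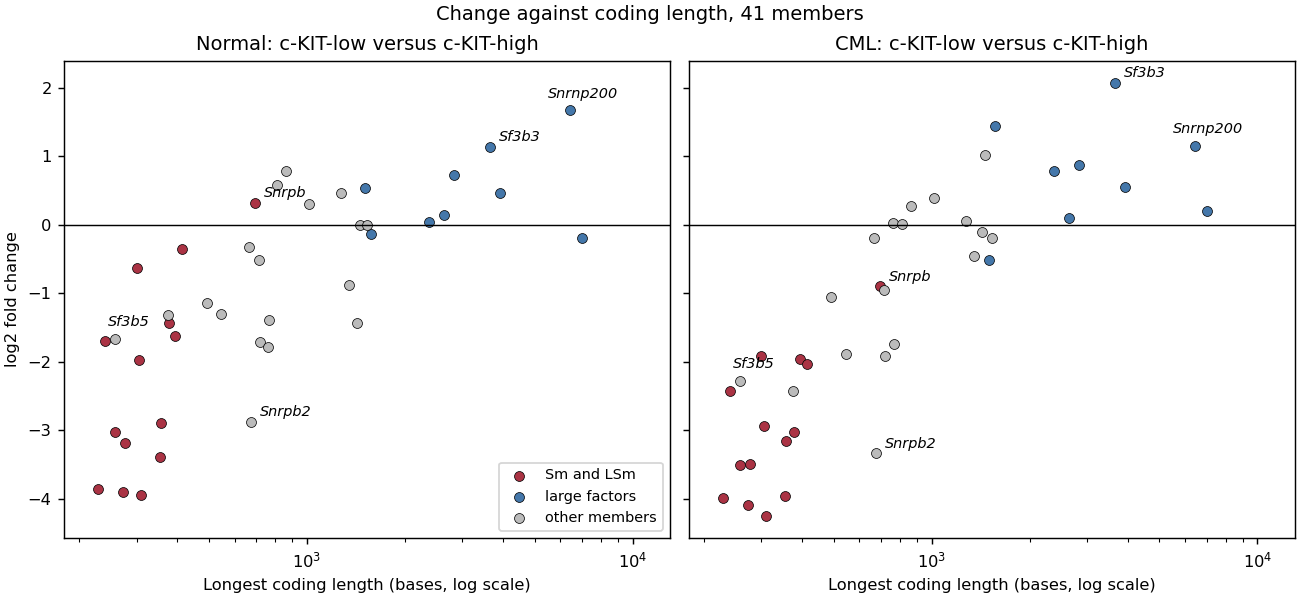
Log2 fold change of each of the 41 members, c-KITlo versus c-KIThi, against longest coding length (log axis) in normal (left) and CML LT-HSCs (right). Sm and LSm genes lie at the lower left and large factors at the upper right, with Spearman correlations of 0.79 and 0.90, while Snrpb2 lies below other members of its length.

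Between disease states no member passed the edgeR test. In c-KITlo LT-HSCs from CML versus normal mice 0 of 41 were called in edgeR and DESeq2, with 3 and 2 at an unadjusted p under 0.05. In edgeR 2003 of 14676 genes had such a p. Of all genes 0.0954% were called in edgeR, 0.0681% higher and 0.0273% lower. The libraries did not overlap for 1 member higher and 0 lower (12.3% and 7.84% of all genes). All 14 Sm and LSm genes had log2 fold changes below 0 (median -0.82), from -0.37 for *Lsm5* to -2 for *Lsm7* (adjusted p = 0.272), and the large factors had a median of 0.39, with *Prpf19* highest (1.18, higher in every CML library, adjusted p = 0.413). Without normal c-KITlo library 2, 3 members (7.32%) were called, *Sf3b3* (2.14) and *Sf3b1* (1.18) higher and *Sf3b6* (-1.53) lower, where 5.7% of all genes were. Without normal c-KITlo library 3 the Sm and LSm median was -0.05, with 8 of 14 genes below 0, so the shift of the rings rested on that library.

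In c-KIThi LT-HSCs from CML versus normal mice 0 of 41 members were called in edgeR and DESeq2, with 1 at an unadjusted p under 0.05 by each tool. In edgeR 977 of 14676 genes had such a p, and 0.0204% were called. The libraries did not overlap for 4 members higher and 0 lower (7.97% and 6.36% of all genes). The median was -0.12, and the members ranged from -1.68 for *Lsm7* (adjusted p = 0.724) to 0.76 for *Snrpd3*. The direction of the median turned without normal c-KIThi library 1 (0.06, with 0.15 for the Sm and LSm genes) and with limma-voom (0.03 and 0.26). These comparisons share the libraries of the c-KIT comparisons and are not independent of them.

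The change from c-KIThi to c-KITlo was not shown to differ between CML and normal LT-HSCs for any member. Of 14676 genes 0.0% were called by edgeR, and 1663 had an unadjusted p under 0.05. No member had such a p, by edgeR or DESeq2. The difference (CML minus normal) ran from -1.68 for *Lsm4* (95% interval -3.62 to 0.26) to 1.81 for *Srsf1* (95% interval -0.03 to 3.65), and these intervals leave room for sizeable differences. The difference was below 0 for all 14 Sm and LSm genes (median -0.52) and had a median of 0.14 in the large factors. Without normal c-KITlo library 3 it was below 0 for 6 of 14 (median 0.26), and without CML c-KIThi library 2 for 8 of 14 (median -0.11). The Sm and LSm median was -1.05 without normal c-KIThi library 1, -0.97 without normal c-KITlo library 2 and -0.89 with limma-voom. At an unadjusted p under 0.05 were 1, 12 and 8 members, beside 2054 of 16121, 3911 of 15978 and 2438 of 14676 genes.

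Of 165 further splicing genes in 10 lists, 6 rose and 12 fell in normal, and 8 rose and 21 fell in CML c-KITlo versus c-KIThi LT-HSCs. These are 3.64% and 7.27% of the list, beside 3.1% and 3.4% of all genes, and 4.85% and 12.7%, beside 2.91% and 5.53%. All calls in normal LT-HSCs were lost without normal c-KIThi library 1 or 2, and all in CML without CML c-KIThi library 2 or CML c-KITlo library 1 or 2, where 0 genes of the whole table were called. None was called between disease states in edgeR. At an unadjusted p under 0.05 were 27 in c-KITlo and 6 in c-KIThi LT-HSCs, beside 2003 and 977 of 14676 genes.

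The exon junction complex, which marks spliced junctions, had 2 of 7 genes lower in normal and 4 of 7 in CML LT-HSCs. *Magoh* went from 473 to 81.8 CPM in normal (-2.53, adjusted p = 0.0275) and from 355 to 45.3 CPM in CML LT-HSCs (-2.97, adjusted p = 0.0156), and its paralog *Magohb* fell by 2.80 and 2.48. *Rbm8a* (Y14), the partner of MAGOH, and *Upf3b*, which links the complex to mRNA decay, fell in CML (-2.88 and -2.64).

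In the minor spliceosome, which removes rare introns, 4 of 9 genes fell in CML (*Zrsr2* by 2.80, *Zmat5* by 2.44, *Snrnp25* by 2.37 and *Zcrb1* by 2.13 on the log2 scale) and 0 of 9 were called in normal LT-HSCs, with 1 at an unadjusted p under 0.05. Among 17 tri-snRNP partners *Snrnp27* (-2.84) and *Txnl4a* (-1.98), small proteins of the tri-snRNP and U5, fell in CML and *Eftud2*, the large U5 GTPase, rose from 78.0 to 333 CPM (2.09, adjusted p = 0.0404). Of 8 other proteins with an Sm fold, *Naa38*, an auxiliary subunit of an N-terminal acetyltransferase, fell in both comparisons (-3.52 and -4.23). None of 16 snRNP assembly genes was called by edgeR, with 1 and 6 at an unadjusted p under 0.05.

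Long genes did not all hold their level. *Son*, a very large SR-like scaffold of nuclear speckles with 7431 coding bases, fell from 7140 to 346 CPM in normal (-4.37, adjusted p = 0.0162) and from 4630 to 178 CPM in CML LT-HSCs (-4.70, adjusted p = 0.0151), which was the lowest log2 fold change of the 165 genes in CML. *Srrm2*, another large speckle protein (8109 coding bases), fell in CML (-1.71, adjusted p = 0.0323), and *Srrm1* fell in both (-1.68 and -1.58). Among the 22 SR-like genes *Tra2b* (-2.74 and -2.63) and *Srsf10* (-1.83 and -1.84) also fell in both, and *Clk2*, a kinase of SR proteins named after its values were seen, rose in CML (1.98).

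Of 24 PRPF19-associated genes, 2 rose in normal, and 1 rose and 2 fell in CML LT-HSCs. *Xab2*, a member of the PRPF19-associated complex, rose in both (1.90, adjusted p = 0.0323, and 1.62, adjusted p = 0.0440), and *Plrg1* rose in normal LT-HSCs (1.49), while *Rbmx2* (-3.13) and *Bcas2* (-2.16) fell in CML. Of 16 ATPases and catalytic-step factors 2 rose in each comparison. *Tfip11* (3.30) and *Slu7* (1.59) rose in normal and *Dhx38*, the helicase of the second step, (2.58) and *Cactin* (2.06) in CML LT-HSCs. Among U1 partners and 3′ splice site factors *Cherp* (3.23) and *Sf1*, the first branch point binder, (1.48) rose and *Dnajc8* (-1.61) fell in CML, *Rbm5* rose (1.47) and *Rbm25* fell (-2.02) in normal, and *Luc7l3* fell in both (-3.65 and -2.62). Of 27 hnRNP proteins, *Hnrnpa0* fell in both (-4.76 and -3.19), *Hnrnpdl* (-1.64) and *Syncrip* (-2.64) fell and *Hnrnph2* (1.54) rose in normal, and *Ptbp1*, a repressor of exon inclusion, rose in CML from 46.9 to 271 CPM (2.53, adjusted p = 0.0220).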

How the data were processed

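LT-HSC RNA was amplified with a SMARTer Ultra Low Input kit, and Nextera XT libraries, which carry no strand information, were sequenced. Per the labels and the submitters' processing notes, the authors aligned reads with STAR 2.5.3a to GRCm38 (Gencode M11), counted reads per gene with HTSeq 0.9.1 and deposited whole-number counts without normalization. The notes also list DRAGEN and DESeq2 1.22.2. The HTSeq strand setting is not given in the sources used here. Labels and methods speak of 4 biological replicates in a group. In each group 3 libraries were analysed here. Nothing links the libraries to single animals, so p-values measure the spread between libraries.

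HTSeq's 5 summary rows entered neither the library sizes nor any test. Between 24.4% and 60.6% of HTSeq entries were on genes in each library. Genes were filtered with filterByExpr by group, scaled by TMM and tested in a fit of all 12 libraries with 1 mean per group (the quasi-likelihood test of edgeR 4.0.16 under R 4.3.3). P-values were adjusted by Benjamini-Hochberg over 14676 genes, and a change was called at an adjusted p under 0.05. The script was tested on simulated data. Alternatives were DESeq2 1.42.0, limma-voom (limma 3.58.1, weighted samples), DESeq2's size factors instead of TMM, tests without the filter, only the groups compared, libraries thinned to 7753878 counts, a replicate block, offsets on exonic length, and each library left out in turn.

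Symbols, lengths and overlaps came from GENCODE M21 (GRCm38), which matched 48349 of 48795 identifiers. Look-alike genes were found with minimap2 2.31-r1302. Promoters came from RefSeq (GRCm38.p6). The first entry was used for the 7 members with more than 1. The members and lists were chosen with earlier results of these data known. Values in every library are given for members called in any comparison, the 2 of each class with the smallest p in each c-KIT comparison, and the members with the highest and lowest change. A few more members are given to complete a ring or a pair. From the further lists, up to 4 called genes with the smallest p are named.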

Additional observations from a re-analysis of the deposited data

How the results depend on the processing

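No called member changed direction under any alternative. Against 8 members called in normal LT-HSCs, 14 were called with DESeq2, 0 with limma-voom, 0 in a fit of the 2 groups alone and 0 to 19 with a library left out. In the fit of the 2 groups alone 15 members and 1947 of 12354 genes had an unadjusted p under 0.05. Against 15 in CML the counts were 29 with limma-voom, 25 with only the groups compared (4 of them higher) and 0 to 21 with a library left out. Without the filter 1 member was called higher in each of these comparisons, where 4.25% and 4.95% of all genes were called. In CML 1 member was called higher without normal c-KITlo library 2 or 3, where 13.0% and 12.7% of all genes were called. CML versus normal c-KITlo LT-HSCs gave 0 to 3 members called. The difference between the class medians in the comparison of changes (-0.66) was -2.18 with limma-voom and -2.08 to 0.41 with a library left out. The replicate block gave 3 in normal and 9 in CML LT-HSCs, but libraries of the same number did not deviate together (r = -0.136 to 0.0961), and the numbers were not taken as a pairing. Over all genes, 455 rose and 499 fell in normal LT-HSCs (322 and 547 with medians of ratios, which moved the median of all genes from 0.161 to 0.0223, 1119 and 1874 with DESeq2, 2 and 0 with limma-voom, 3 and 23 with only the groups compared, 68 and 131 with the replicate block), and 427 and 811 in CML LT-HSCs (1064 and 2135, 2994 and 3288, 2320 and 2487, and 108 and 322 with DESeq2, limma-voom, only the groups compared and the replicate block). The causes were not tested. With 3 libraries per group, and a median SD of log2 CPM of 1.09 in the members of normal c-KITlo libraries against 0.45, 0.48 and 0.16 in normal c-KIThi, CML c-KIThi and CML c-KITlo libraries, precision was lowest in normal c-KITlo LT-HSCs.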
